A study of Mus musculus with 8 samples.

Results

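The genes described are the actins *Acta2*, *Actb* and *Actg1*, the transgelins *Tagln* and *Tagln2*, the tropomyosins *Tpm1*, *Tpm2* and *Tpm4* and the calponins *Cnn1* and *Cnn2*, chosen by symbol as 10 of the 37310 genes with read counts. They were measured by RNA-seq in NMuMG cells, which are epithelial cells of a line derived from the normal mammary gland of the mouse, in 4 conditions with 2 replicates each. The conditions were control cells without treatment, control cells given 10 ng/ml TGF-β1 for 2 h, and cells labelled KO without treatment or with the same dose and time. KO stands for cells grown from single edited cells. CRISPR-Cas9 was used to delete a fragment between cuts in the promoter and the first exon of the long non-coding RNA gene *Lnc-Nr6a1*. How many clones entered the libraries is not given in the sources used here, and neither is the control cells' own treatment during editing. *Lnc-Nr6a1*, listed as Gm13507, was counted 3 and 14 times in control cells without treatment and 25 and 35 times after TGF-β. It had 11 and 7 counts in the untreated KO libraries and 0 and 0 in the treated ones. By edgeR it was called lower between treated genotypes (adjusted p = 0.00984) and not between untreated ones (log2 change 0.61, adjusted p = 0.785). These counts cover the whole gene and not the deleted part alone, so they check the deletion only in part. As they were not lower in the untreated KO libraries than in untreated control cells, all 4 are called libraries labelled knockout.

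Actin monomers assemble into filaments, and tropomyosins lie along these filaments and set which myosins and severing proteins can reach them. Transgelins and calponins bind and bundle the same filaments. *Actb* and *Actg1* encode the 2 actins of non-muscle cells, while *Acta2*, *Tagln*, *Tpm2* and *Cnn1* are best known from smooth muscle, myoepithelial cells and myofibroblasts. Free actin monomers hold the cofactors MKL1 and MKL2 away from the transcription factor SRF, which binds a motif named the CArG box in front of many actin genes. Over days, TGF-β drives NMuMG cells from an epithelial to a mesenchymal shape with thick actin bundles, and the 2 h treatment falls at the start of that course.

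A library held 4297832 to 13574397 counts, both extremes among those labelled knockout. Every treated library was deeper than every untreated one (at least 9895118 counts beside at most 7871090), so depth goes with treatment in both TGF-β comparisons. The level of 3 counts, taken as the floor of detection, was 0.238 to 0.661 CPM (counts relative to library totals scaled with edgeR's TMM factors), which covers counting error only. Of the 7 epithelial markers, *Krt8*, *Krt18*, *Krt19* and *Cdh1* had at least 1120 counts in every library, whereas *Epcam*, *Cldn3* and *Cldn7* had at most 2. With TGF-β in control cells, *Krt8* (log2 change 0.65, edgeR's adjusted p = 0.0472) and *Krt18* (0.96, edgeR's adjusted p = 0.0295) passed the test as higher. *Krt19* and *Cdh1* did not, and in libraries labelled knockout none of these passed with TGF-β. *Cdh1* passed as higher under the knockout label between treated genotypes (0.61, edgeR's adjusted p = 0.0433). The 4 basal or myoepithelial markers had a summed level of 2.42 to 5.91 CPM in untreated and of 23.8 to 42.0 CPM in treated libraries, nearly all of it *Krt14*, which passed the test as higher with TGF-β both in control cells (log2 change 2.33, edgeR's adjusted p = 0.00304) and in libraries labelled knockout (3.66, edgeR's adjusted p = 0.000682). Of the others, *Krt5* and *Oxtr* had at most 2 counts in a library and *Trp63* at most 9, and the part of basal cells in the members' values was not tested. The fibroblast, leukocyte and endothelial lists stayed low in their summed level, with 0.797 to 4.85 CPM for 6 fibroblast markers, 2.07 to 5.32 CPM for 3 leukocyte markers and 0 to 0.847 CPM for 2 endothelial markers. The 5 smooth muscle markers summed to 42.6 to 119 CPM, and only *Smtn* among them passed the filter on low counts. In each treated pair, *Srf* differed between the replicates by over 1.6 on the log2 scale, in opposite orders of the replicate numbers. Most calls given below that rest on these libraries were also computed with either library of each pair left out. That on *Lnc-Nr6a1* was not.

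To show where the promoters of these genes carry the SRF motif, RefSeq sequences of mouse assembly GRCm38.p6 were searched over the 250 bases before the start of each gene. An entry was found for 8 of the 10 genes, and the 2 without one were *Actb* and *Tagln*. A CArG box was taken as CCWWWWWWGG, with W for A or T and no mismatch allowed. On either strand, it was present in front of *Actg1* and *Cnn2*, compared with 1.47% of 32851 promoters of the same length. It stood 90 to 81 bases before the start of *Actg1* and 56 to 47 bases before that of *Cnn2*. Outside the 10 genes, the muscle actins *Acta1* and *Actc1* also had one. Boxes with a mismatch were not searched, so SRF sites in the other promoters, such as that of *Acta2*, were not tested. The motif CAGAC, the short site of SMAD proteins, was present in front of *Acta2* and *Tagln2* on one of both strands searched, and in 42.2% of all promoters. The AP-1 motif TGANTCA was present in front of none of the 8, and in 6.75% of all promoters. No match overlapped another in these genes. The promoters of *Actg1* and *Cnn2* are shown 5′ to 3′ in the direction of the gene, with the box in capitals. That of *Actg1* is on the minus strand at chr11:120348496-120348745, and that of *Cnn2* on the plus strand at chr10:79988350-79988599.
Actg1 promoter: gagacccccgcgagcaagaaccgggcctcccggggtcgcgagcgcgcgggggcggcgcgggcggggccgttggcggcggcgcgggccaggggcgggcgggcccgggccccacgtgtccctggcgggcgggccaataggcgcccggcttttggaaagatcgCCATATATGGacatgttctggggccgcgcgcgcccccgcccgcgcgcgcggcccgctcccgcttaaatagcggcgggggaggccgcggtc
Cnn2 promoter: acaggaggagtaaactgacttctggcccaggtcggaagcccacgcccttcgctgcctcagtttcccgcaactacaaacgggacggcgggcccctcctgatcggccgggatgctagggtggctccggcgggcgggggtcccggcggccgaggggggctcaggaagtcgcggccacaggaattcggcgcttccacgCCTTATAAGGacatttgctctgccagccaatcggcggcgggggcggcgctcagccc

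The coding sequences of *Actb* and *Actg1* resemble each other. In GENCODE vM1 on NCBIM37 (mm9), the annotation whose identifiers the counts carry, both span 1128 coding bases, of which 1000 were identical, or 88.65%. Few stretches of 75 bases are the same. Of such windows along the *Actb* transcript, 3.58% were found letter for letter anywhere else in the genome. The first 90 coding bases are shown because they hold the few codons in which the proteins differ at their start, and the 16 differing bases are in capitals.
Actb coding bases 1 to 90: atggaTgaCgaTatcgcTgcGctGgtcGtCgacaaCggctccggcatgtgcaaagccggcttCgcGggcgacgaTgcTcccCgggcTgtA
Actg1 coding bases 1 to 90: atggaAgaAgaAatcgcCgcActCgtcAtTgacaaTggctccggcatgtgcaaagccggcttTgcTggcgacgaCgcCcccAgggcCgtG

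The 10 genes fell into 2 sets without an intermediate. *Acta2* (chromosome 19, 34315580 to 34329826), the smooth muscle actin, had 1 count in a treated control library, 1 in a treated library labelled knockout and 0 in the other 6. *Tagln* (chromosome 9, 45737711 to 45744141), which encodes SM22, had 2 counts in an untreated and 1 in a treated control library and 0 elsewhere. *Tpm2* (chromosome 4, 43527583 to 43536637) had at most 2 counts in any library and 6 in all. *Cnn1* (chromosome 9, 21903725 to 21914074), the calponin of smooth muscle, had 1 count in all 8 libraries together. These 4 genes were under the floor of 3 counts in every library, before and after TGF-β, so no fold change is given, and a change below that level was not detectable at this depth. *Tagln* shares 65 exonic bases with *Pcsk7* on the opposite strand. The smooth muscle cofactor of SRF, *Myocd*, had 0 counts in all 8 libraries. The muscle actins *Actc1* and *Actg2*, the muscle myosin *Myh11* and the myosin light chain *Myl9* had at most 2 in any of them, and the muscle actin *Acta1* had 2 to 8, above the floor in 6 of the 8.

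The other 6 genes had at least 360 counts in every library and passed the filter on low counts. Their levels are also given per kilobase of annotated exon, with the exons of all annotated transcripts of a gene counted in its length. This length was 6485 bases for *Tpm1*, with 21 transcripts, and 2203 bases for *Tpm4*, with 2. The single transcript of each used further on in the search for copies had 1898 and 2128 bases. Whether these lengths match the transcripts expressed was not tested, so the order of genes on this scale holds for the exon lengths used only. On this scale *Actb* was highest, with a median over the libraries of 1985 CPM per kilobase and a range of 1808 to 3028. *Tpm4* followed with a median of 168, *Tagln2* with 140, *Tpm1* with 109, *Actg1* with 105 and *Cnn2* with 35.1 CPM per kilobase. Without division by length, *Tpm1* (665 to 1033 CPM) was above *Tpm4* (295 to 514 CPM), so the place of *Tpm1* in this order depends on the length used. The ranges of *Tpm4*, *Tagln2*, *Tpm1* and *Actg1* overlapped one another. *Actb* was between the 6th and the 9th most counted gene of each library. The level of *Actg1* on this scale leaves out reads given to its pseudogenes, described further on.

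**Figure D1:**
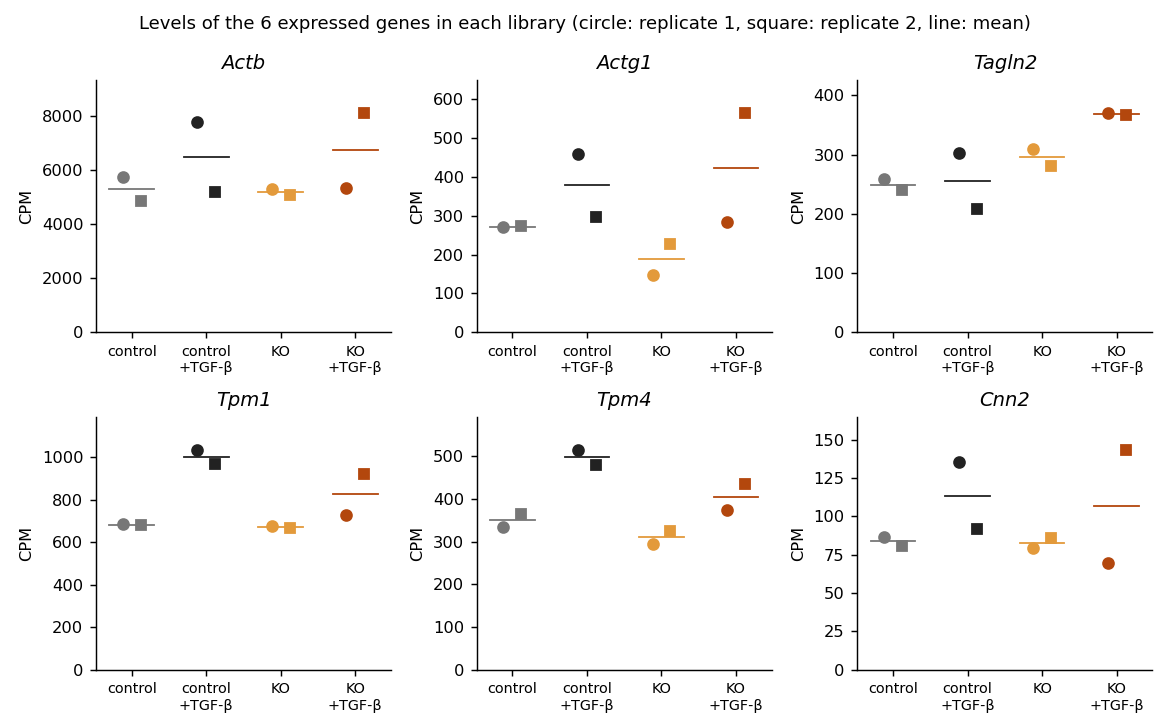
Levels in CPM (vertical axes from 0, a scale of its own for each gene) of the 6 expressed genes in the 4 conditions, with a circle for replicate 1, a square for replicate 2 and a line for the mean. *Tpm1* and *Tpm4* separate the conditions most cleanly, while *Actb*, *Actg1* and *Cnn2* are split in both treated conditions, by replicate 1 in control cells and by replicate 2 in libraries labelled knockout.

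The first question was how these genes respond to TGF-β in control cells. *Tpm1* and *Tpm4*, whose products coat the filaments of non-muscle cells, passed the test as higher by a narrow margin that several other settings removed, while the 2 actins, *Tagln2* and *Cnn2* did not pass it. *Tpm1* (chromosome 9, 66870397 to 66897213) was at 684 and 680 CPM in untreated control cells and at 1033 and 969 after TGF-β. Both treated libraries were above both untreated ones, and the means were 682 ± 3.29 (SD, n = 2) and 1001 ± 45.7 (SD, n = 2) CPM. The means differ 1.47-fold, or by 0.55 on the log2 scale (SE 0.14, edgeR's Benjamini-Hochberg adjusted p = 0.0413). *Tpm4* (chromosome 8, 74658874 to 74677041) was at 335 and 366 CPM untreated and at 514 and 480 after TGF-β. Again the groups did not overlap, and the difference was 1.42-fold, or 0.50 on the log2 scale (SE 0.14, edgeR's adjusted p = 0.0497). A change in transcripts per cell and one in the share of expressing cells cannot be told apart in such bulk RNA. A gene was called at an adjusted p below 0.05 with an absolute log2 fold change (here log2 change) above 0.5, by which 9.16% of the 13028 genes tested were called, 4.69% as higher and 4.47% as lower. The call on *Tpm4* was lost when any single one of the 8 libraries was left out (adjusted p 0.0613 to 0.296) and that on *Tpm1* when any of 6 was, all but the treated libraries labelled knockout (0.0375 to 0.213 over all 8). Both calls were also lost in edgeR with the replicate number as a block (adjusted p 0.0614 for *Tpm1* and 0.064 for *Tpm4*), with upper-quartile factors (0.0537 and 0.0669), with library totals alone (0.0816 and 0.11) and with the 4 libraries compared fitted alone (0.112 and 0.136). That on *Tpm4* was lost with RLE factors (0.0524), and both held in DESeq2 (0.0142 and 0.0274) and in limma-voom (0.0376 and 0.0451).

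*Actb* (chromosome 5, 143664794 to 143668433) was at 5747 and 4843 CPM in untreated and at 7755 and 5200 CPM in treated control cells. The lower treated library lay within the untreated range, and the log2 change was 0.29 (SE 0.23, edgeR's adjusted p = 0.447). *Actg1* (chromosome 11, 120207004 to 120209856) was at 271 and 273 CPM untreated and at 458 and 297 after TGF-β. The groups did not overlap, but the treated replicates lay farther apart than the groups' nearest values, and the log2 change of 0.48 (SE 0.33) had an adjusted p of 0.383 by edgeR. *Cnn2* (chromosome 10, 79451329 to 79458807), the calponin of non-muscle cells, was at 86.7 and 80.6 CPM untreated and at 135 and 91.6 after TGF-β. Its log2 change was 0.44 (SE 0.30, edgeR's adjusted p = 0.383). *Tagln2* (chromosome 1, 174430178 to 174437511), the transgelin of epithelial and blood cells, was at 259 and 240 CPM untreated and at 303 and 208 after TGF-β. The treated libraries enclosed the untreated ones, with a log2 change of 0.04 (SE 0.18, edgeR's adjusted p = 0.921).

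All 6 estimates were above 0 in this fit, and their median was 0.46 on the log2 scale beside 0.02 over all genes tested. The groups did not overlap for 4 of the 6 genes, a property shared by 53.7% of all genes tested. The signs of *Tagln2* and *Actb* rested on single settings or libraries. *Tagln2* was above 0 in 17 of 22 alternatives, with -0.023 under upper-quartile factors, -0.11 under library totals alone, and -0.02 and -0.27 without replicate 2 of the untreated or replicate 1 of the treated control libraries. *Actb* was above 0 in 20 of 22, with -0.04 without replicate 1 of the treated control libraries.

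In libraries labelled knockout the same treatment gave estimates above 0 for all 6 genes, with a median of 0.37 on the log2 scale beside 0 over all genes tested, and none was called by edgeR. Of all genes, 6.82% were called in this comparison, 4.25% as higher and 2.57% as lower. At an unadjusted p below 0.05 there were 2, *Actg1* and *Tpm4*, beside 22.7% of all genes. DESeq2 called 1, *Actg1*, beside 9.27% of all genes, and limma-voom none, beside 6.03%. *Actg1* was at 148 and 227 CPM untreated and at 283 and 565 after TGF-β. The groups did not overlap although each pair was wide, and the log2 change was 1.17, or 2.25-fold (SE 0.33, edgeR's adjusted p = 0.0663). It was called when replicate 1 or 2 of the treated control libraries or replicate 1 of the treated libraries labelled knockout was left out (edgeR's adjusted p = 0.0307, 0.0302 and 0.00998). *Tpm4* was at 295 and 324 CPM untreated and at 373 and 434 treated, a log2 change of 0.38 (SE 0.14, edgeR's adjusted p = 0.138). *Tpm1* was at 675 and 665 CPM untreated and at 728 and 922 treated, a log2 change of 0.30 (SE 0.14, edgeR's adjusted p = 0.246) that ran from 0.15 to 0.48 with replicate 2 or replicate 1 of these treated libraries left out. In both tropomyosins each treated library was above each untreated one.

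*Actb* was at 5292 and 5077 CPM in untreated libraries labelled knockout and at 5344 and 8113 after TGF-β, with a log2 change of 0.38 (SE 0.23, edgeR's adjusted p = 0.374). One treated library stood next to the untreated ones and the other well above them. *Tagln2* was at 310 and 280 CPM untreated and at 371 and 367 treated, the closest treated pair of the 6 genes, with a log2 change of 0.32 (SE 0.18, edgeR's adjusted p = 0.324). *Cnn2* was at 79.4 and 86.1 CPM untreated and at 69.6 and 143 treated, so that the treated libraries lay on both sides of the untreated ones (log2 change 0.36, SE 0.30, edgeR's adjusted p = 0.525). The groups did not overlap for 5 of the 6 genes, beside 56.6% of all genes tested.

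**Figure D2:**
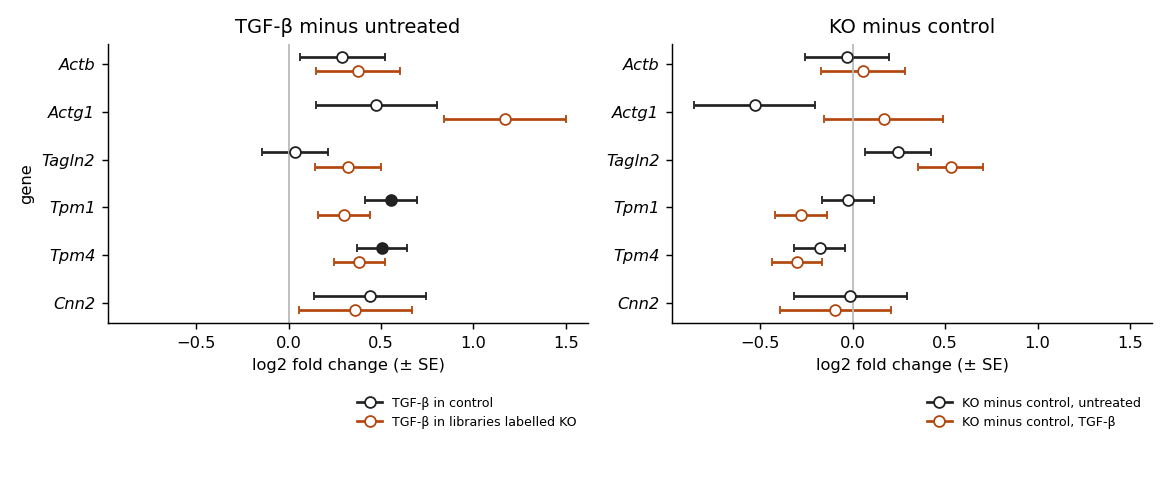
Log2 fold changes with their standard errors (horizontal axis) of the 6 genes, for TGF-β minus untreated in the left panel and knockout-labelled minus control libraries in the right panel; filled points are called. All estimates of the TGF-β comparisons are above 0 with TMM factors (that of *Tagln2* in control cells turns to -0.11 with library totals alone), and *Tpm1* (0.55) and *Tpm4* (0.50) in control cells are the called ones.

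Whether the response to TGF-β differed between the genotypes was tested as an interaction. No gene of the 6 was called, none had an unadjusted p below 0.05, and DESeq2 called none of them either. Over all genes, edgeR called 0 (0% of those tested), with 1134 (8.7%) at an unadjusted p below 0.05, and DESeq2 called 31 (0.356%). *Actg1* had the largest difference of the 6, 0.70 on the log2 scale (SE 0.46, edgeR's adjusted p = 0.701), and ranged from 0.15 without replicate 2 to 1.14 without replicate 1 of the treated libraries labelled knockout. For *Tpm1* the response was smaller by 0.25 in the libraries labelled knockout (SE 0.20, edgeR's adjusted p = 0.762; -0.40 to -0.06 with a library left out), so that its call in control cells alone does not show a difference between genotypes. The estimates were 0.29 (SE 0.25) for *Tagln2*, 0.09 (SE 0.32) for *Actb*, -0.08 (SE 0.43) for *Cnn2* and -0.12 (SE 0.19) for *Tpm4*.

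Between untreated genotypes no member was called by edgeR or by DESeq2, and none had an unadjusted p below 0.05. Of all genes, 1.83% were called by edgeR and 2.94% by DESeq2, and 14.9% had an unadjusted p below 0.05. *Tpm1* had a log2 change of -0.03 (SE 0.14), *Actb* of -0.03 (SE 0.23) and *Cnn2* of -0.01 (SE 0.31). That of *Tagln2* was 0.24 (SE 0.18, edgeR's adjusted p = 0.572) and that of *Tpm4* -0.18 (SE 0.14, edgeR's adjusted p = 0.592). *Actg1* was at 148 and 227 CPM in libraries labelled knockout beside 271 and 273 in control cells, a log2 change of -0.53 (SE 0.33, edgeR's adjusted p = 0.499). The lowest of these values came from the shallowest library, without which the log2 change was -0.26, and without replicate 2 of the untreated libraries labelled knockout it was -0.88. The groups did not overlap for 4 of the 6 genes, compared with 51.9% of all genes.

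Between treated genotypes, where 15% of all genes were called (8.47% as higher and 6.57% as lower), edgeR called none of the 6 and DESeq2 called *Tagln2*, beside 15.8% of all genes. *Tagln2* was at 371 and 367 CPM in libraries labelled knockout beside 303 and 208 in control cells, without overlap. The log2 change was 0.53 (SE 0.18, edgeR's adjusted p = 0.0738), the only unadjusted p below 0.05 among the 6, beside 31.4% of all genes. It was called when replicate 1 of the treated control libraries was left out (log2 change 0.84, edgeR's adjusted p = 0.00844), and without replicate 2 of them the log2 change was 0.29 (edgeR's adjusted p = 0.276). *Tpm1* and *Tpm4* were lower in both treated libraries labelled knockout than in both treated control libraries, by log2 changes of -0.28 (SE 0.14, adjusted p = 0.209) and -0.30 (SE 0.14, adjusted p = 0.165) in edgeR. With a library left out, these ranged from -0.45 to -0.11 and from -0.40 to -0.19. These were among the 3 of 6 genes without overlap, beside 55.8% of all genes. The log2 change was 0.05 (SE 0.23) for *Actb*, 0.17 (SE 0.32) for *Actg1* and -0.09 (SE 0.30) for *Cnn2*. This comparison shares its treated libraries with the TGF-β comparisons.

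Ordered by mean level, *Tpm1* and *Tpm4* gave the same sequence of conditions, with treated control cells highest, then treated libraries labelled knockout, untreated control cells and untreated libraries labelled knockout. In both genes the ranges of neighbouring conditions did not overlap, although the step between the untreated conditions was within the standard error for *Tpm1*. For *Actb* and *Cnn2* every pair of neighbours in the order overlapped. *Tagln2* was highest in treated libraries labelled knockout and did not overlap with the next condition, the untreated libraries labelled knockout, and its other neighbours overlapped. For *Actg1* the 2 treated conditions overlapped and the 2 untreated ones were below them and apart from each other.

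The 2 replicates of a treated condition lay apart to a different extent in different members. In treated control cells, replicate 1 exceeded replicate 2 by 0.58 on the log2 CPM scale for *Actb*, 0.62 for *Actg1*, 0.56 for *Cnn2* and 0.54 for *Tagln2*, beside 0.09 for *Tpm1* and 0.10 for *Tpm4*. The median absolute difference over all genes was 0.33 in that condition. In treated libraries labelled knockout the order was the other way round, with differences of -0.60 for *Actb*, -0.997 for *Actg1* and -1.04 for *Cnn2*. There *Tpm1* differed by -0.34, *Tpm4* by -0.22 and *Tagln2* by 0.02, and the median absolute difference over all genes was 0.22. *Tagln2* was thus split in treated control cells only, and *Tpm1*, close together in control cells, had the sign of *Actb* and a difference above that median here. *Srf*, which encodes the transcription factor of the CArG box, moved the same way and further. It was at 73.0 and 17.7 CPM in treated control cells and at 26.1 and 83.3 CPM in treated libraries labelled knockout, beside 29.9 to 38.1 in the 4 untreated libraries. *Fos*, an early response gene whose own promoter is a classic SRF target, was at 11.8 and 9.63 CPM in treated control cells and at 12.6 and 51.4 CPM in treated libraries labelled knockout. *Egr1*, another early gene of this kind, was at 0.750 and 0.847 CPM in treated control cells, opposite to the order of *Srf*, and at 1.22 and 2.38 CPM in treated libraries labelled knockout, with 8 to 30 counts in these 4 libraries.

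**Figure D3:**
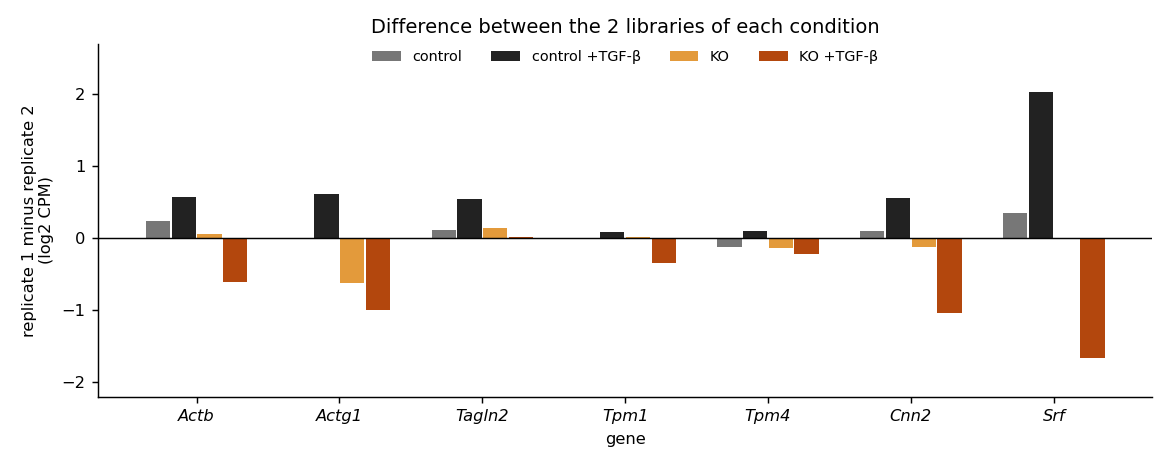
Difference between replicate 1 and replicate 2 of each condition on the log2 CPM scale (vertical axis) for the 6 genes and *Srf*; bars are single differences, so they carry no error. *Actb*, *Actg1* and *Cnn2* follow the sign of *Srf* in both treated conditions (2.03 and -1.67 for *Srf*). *Tpm1* and *Tpm4* have that sign in both too but differ by at most 0.34, and *Tagln2* does not have it in treated libraries labelled knockout (0.02).

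Taken relative to the mean of each condition, log2 CPM of *Actb* had a Pearson correlation of 0.98 with that of *Srf* and of 0.93 with that of *Cnn2* over the 8 libraries, and *Cnn2* one of 0.92 with *Srf*. For *Actg1* the value with *Srf* was 0.83, for *Tpm1* 0.81, for *Tagln2* 0.73 and for *Tpm4* 0.65, and *Tpm1* had one of 0.85 with *Actb* and of 0.96 with *Cnn2*. These values describe 4 pairs of libraries that share depth and scaling, and they rest on the 2 treated pairs. The TGF-β results were also computed without 1 library of each treated pair, a choice made after seeing the data. As the libraries were picked by *Srf*, with which these genes move, the direction of the shift was fixed by that choice and the values are a description. In control cells the log2 change of *Actb* was 0.55 without the treated libraries of lower *Srf* and -0.04 without those of higher *Srf*, that of *Actg1* 0.75 and 0.12, and that of *Cnn2* 0.70 and 0.12. In libraries labelled knockout the corresponding values were 0.67 and 0.07 for *Actb*, 1.61 and 0.62 for *Actg1*, and 0.81 and -0.22 for *Cnn2*. *Tpm1* in control cells was at 0.60 and 0.49 and *Tpm4* at 0.55 and 0.44. In these fits each treated condition has 1 library, which is assumed to vary as the untreated ones do, and what sets the 2 libraries of a treated pair apart was not tested.

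Counts of *Actg1* are uncertain because the genome holds near-identical copies of it. Of the 1878 windows of 75 bases along its transcript, 95.3% were also found letter for letter at another place of the NCBIM37 assembly, and 11 other loci aligned to it over at least 300 bases with at least 90% identity. The corresponding share was 3.58% for *Actb*, 10.7% for *Tpm4* and 0% for the other 7 genes. At 5 annotated pseudogenes among the loci matching *Actg1*, 41523 counts were listed in all libraries, more than the 25136 on *Actg1* itself. Gm12715 on chromosome 4 (103235929 to 103237833) held 30049 of them and Gm8399 on chromosome 13 (81203683 to 81204802) 11244. Of the counts on *Actg1* and these pseudogenes together, 56.9% (95% Wilson interval 56.0 to 57.8) to 68.3% (66.3 to 70.3) of a library lay on the pseudogenes.

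**Figure D4:**
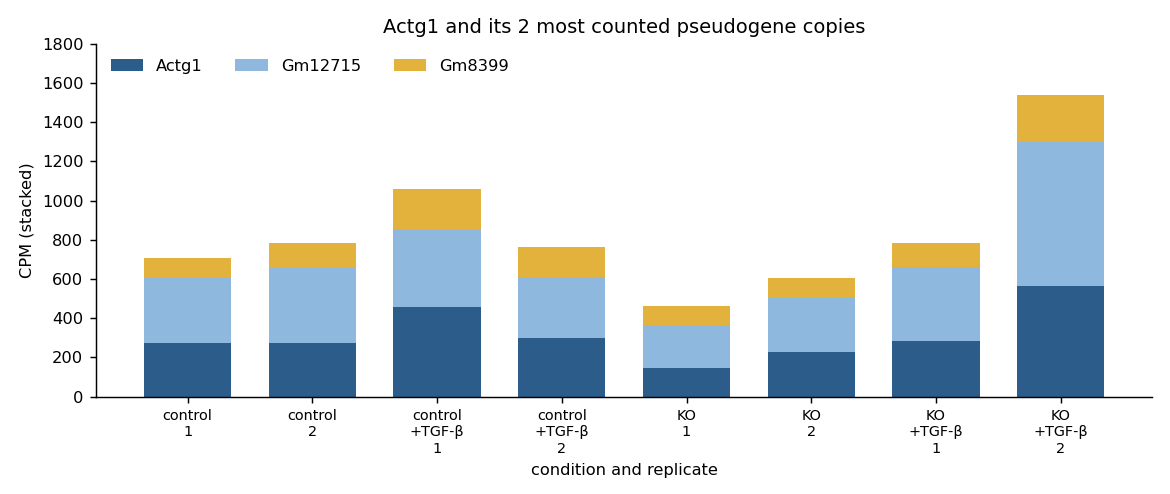
CPM on *Actg1* and on its 2 most counted pseudogene copies, stacked (vertical axis from 0), in each of the 8 libraries. In every library Gm12715 and Gm8399 together hold more than *Actg1* itself, and the summed level is highest in replicate 2 of the treated libraries labelled knockout and in replicate 1 of the treated control libraries.

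Gm12715 had 332 and 385 CPM in untreated control cells and 399 and 314 after TGF-β. Libraries labelled knockout had 216 and 274 CPM of it untreated and 376 and 736 after TGF-β, where it passed as higher with a log2 change of 1.18 (SE 0.28, edgeR's adjusted p = 0.039). This was 0.65 without the treated libraries of higher *Srf* and 1.61 without those of lower *Srf*, and it passed in both. With the pseudogene counts added to *Actg1*, an alternative also chosen after seeing the data, the level was 711 and 784 CPM in untreated control cells and 1062 and 765 in treated ones. It was 468 and 610 CPM in untreated libraries labelled knockout and 786 and 1543 in treated ones. In control cells the log2 change was then 0.29 (SE 0.29, edgeR's adjusted p = 0.558), against 1.11 (SE 0.29, edgeR's adjusted p = 0.0523) under the knockout label, so that the call did not change in either.

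*Tpm4* has a copy of the same kind, the pseudogene Gm7809 on chromosome 17 (22103142 to 22105239), with 5720 counts beside 29624 on *Tpm4*. Gm7809 was at 55.4 and 53.2 CPM in untreated and at 116 and 121 CPM in treated control cells, a rise of 1.13 on the log2 scale (SE 0.16, edgeR's adjusted p = 0.00385). The knockout-labelled libraries had it at 59.5 and 55.6 CPM untreated and at 61.9 and 79.2 treated (log2 change 0.30, SE 0.16, edgeR's adjusted p = 0.309). Its level separated the genotypes after TGF-β by -0.75 on the log2 scale (SE 0.16, edgeR's adjusted p = 0.0146), a call that was lost without the treated libraries of lower *Srf* (-0.55, adjusted p = 0.0749). With its counts added to *Tpm4*, the TGF-β response of *Tpm4* in control cells was 0.61 (SE 0.13, edgeR's adjusted p = 0.0267). The difference between the treated genotypes was then -0.38 (SE 0.13, edgeR's adjusted p = 0.0869).

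The other members of these families were next. Of *Acta1*, *Actc1*, *Actg2*, *Tpm3*, *Tagln3* and *Cnn3*, only *Tpm3* and *Cnn3* passed the filter on low counts. *Cnn3*, the acidic calponin, was at 94.3 and 101 CPM in untreated and at 157 and 163 CPM in treated control cells. It rose by 0.71 on the log2 scale (SE 0.15, edgeR's adjusted p = 0.0222). Libraries labelled knockout had it at 59.7 and 71.9 CPM untreated and at 79.4 and 90.4 CPM treated (log2 change 0.36, SE 0.15, edgeR's adjusted p = 0.192). Between treated genotypes it was called lower, with a log2 change of -0.91 (SE 0.15, edgeR's adjusted p = 0.00619). Both calls on *Cnn3* held without either library of the treated pairs. *Tpm3* was not called, with log2 changes of 0.19 (SE 0.17) in control cells and 0.23 (SE 0.17) in libraries labelled knockout. In control cells it was at -0.08 without the treated libraries of higher *Srf* and at 0.40 without those of lower *Srf*.

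Of the 4 genes of SRF and its actin-sensing cofactors, 3 were tested. None was called in control cells and 1 in libraries labelled knockout, *Mkl1*, beside 9.16% and 6.82% of all genes. The calls on both cofactors given here held without either library of the treated pairs, and *Mkl2* was called lower in control cells without the libraries of higher *Srf* (-0.63, edgeR's adjusted p = 0.0263). *Mkl1* was at 49.9 and 47.2 CPM in untreated and at 63.4 and 43.8 CPM in treated control cells. Under the knockout label it was at 44.8 and 54.5 CPM untreated and at 84.6 and 118 treated, a rise of 1.03 on the log2 scale (SE 0.23, edgeR's adjusted p = 0.0276). *Mkl2* was not called in either TGF-β comparison (log2 changes -0.29 and 0.27), and *Srf* had 0.42 (SE 0.61) and 0.77 (SE 0.62). Without the treated libraries of higher or of lower *Srf*, that of *Srf* itself was -0.96 or 1.10 in control cells. Under the knockout label it was -0.27 or 1.40, a direction fixed by the choice of libraries. Between treated genotypes both cofactors were called higher in libraries labelled knockout, *Mkl1* by 0.92 (SE 0.22, adjusted p = 0.0249) and *Mkl2* by 0.92 (SE 0.20, adjusted p = 0.016) in edgeR.

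Of 16 genes that bind monomers, sever or cap filaments, 1 was called after TGF-β in each genotype, and it was *Tmsb4x* in both, beside 9.16% and 6.82% of all genes. *Tmsb4x*, whose product thymosin β4 holds actin monomers, was at 253 and 263 CPM in untreated and at 596 and 587 in treated control cells, a log2 change of 1.20 (SE 0.12, edgeR's adjusted p = 0.000886). Under the knockout label it was at 305 and 314 CPM untreated and at 547 and 566 treated, a log2 change of 0.85 (SE 0.12, edgeR's adjusted p = 0.00424). In both treated conditions its replicates lay closer together than those of the actins. Without the treated libraries of higher or of lower *Srf*, its log2 change was 1.17 or 1.21 in control cells. The corresponding values were 0.85 and 0.89 in libraries labelled knockout. *Wdr1*, a cofactor of filament severing by cofilin, was not called, with log2 changes of 0.61 (SE 0.17, edgeR's adjusted p = 0.0523) and 0.52 (SE 0.17, edgeR's adjusted p = 0.107). It was called in both genotypes without the treated libraries of lower *Srf* (0.78 and 0.72, edgeR's adjusted p = 0.00211 and 0.00296), and was at 0.41 and 0.34 without those of higher *Srf*. Over the list, the median log2 change came to 0.25 in control cells and to 0.22 in libraries labelled knockout, beside 0.02 and 0 over all genes.

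Of 15 genes that start or extend filaments, 1 was called higher and 1 lower in control cells, and 1 higher in libraries labelled knockout, beside 9.16% and 6.82% of all genes called in either direction. These calls held without either library of the treated pairs. *Daam1*, a formin, was at 64.8 and 64.6 CPM in untreated and at 155 and 165 CPM in treated control cells (log2 change 1.31, SE 0.14, edgeR's adjusted p = 0.00116). It rose by 1.04 (SE 0.14, edgeR's adjusted p = 0.00332) in libraries labelled knockout, from 82.7 and 75.4 to 151 and 173 CPM. *Wasl*, which encodes the Arp2/3 activator N-WASP, was at 110 and 100.2 CPM in untreated and at 62.7 and 62.5 CPM in treated control cells, a log2 change of -0.75 (SE 0.14, edgeR's adjusted p = 0.0124). Under the knockout label its log2 change was -0.47 (SE 0.14, edgeR's adjusted p = 0.0708).

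Of 17 crosslinking and actomyosin genes tested, 3 were called higher after TGF-β in each genotype and none lower, beside 4.69% of all genes called higher in control cells and 4.25% in libraries labelled knockout. *Cald1*, encoding caldesmon, was at 317 and 347 CPM in untreated and at 478 and 665 CPM in treated control cells (log2 change 0.78, SE 0.16, edgeR's adjusted p = 0.0222). It rose by 0.98 (SE 0.17, edgeR's adjusted p = 0.00945) in libraries labelled knockout, from 320 and 309 to 609 and 629 CPM. *Pls3*, the filament bundler plastin 3, rose by 0.63 (SE 0.17, adjusted p = 0.049) and 0.69 (SE 0.17, adjusted p = 0.0424) in the 2 genotypes by edgeR. *Myl12b*, a myosin regulatory light chain, was called in control cells alone (0.51, SE 0.12, edgeR's adjusted p = 0.0356). *Smtn*, encoding smoothelin, was called in libraries labelled knockout alone (0.80, SE 0.17, edgeR's adjusted p = 0.0252), and neither gene was called in the interaction. Over the list, the median log2 change came to 0.18 in control cells and 0.46 in libraries labelled knockout, beside 0.02 and 0 over all genes. In control cells the call on *Pls3* was lost without the treated libraries of lower *Srf* (0.40, edgeR's adjusted p = 0.118) and that on *Myl12b* without those of higher *Srf* (0.45, edgeR's adjusted p = 0.053), and the other 4 calls held in both fits.

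**Figure D5:**
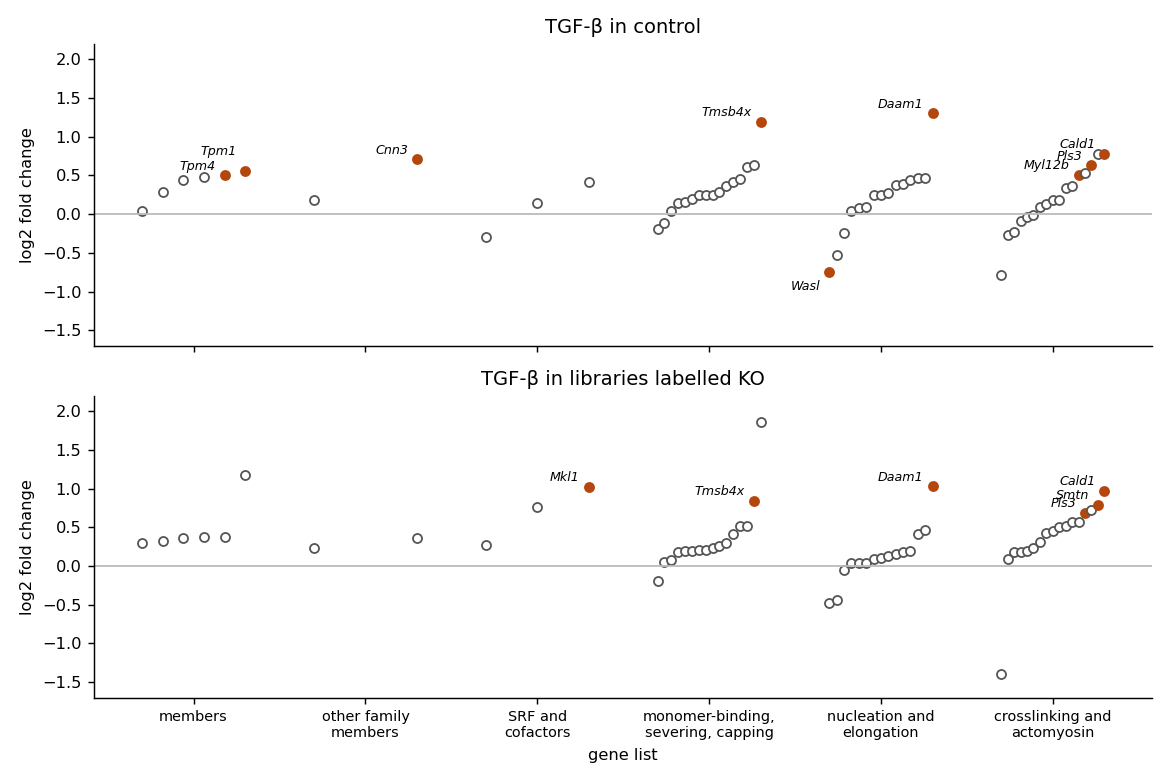
Log2 fold change (vertical axis) after TGF-β of each tested gene in the 6 lists (horizontal axis), in control cells above and in libraries labelled knockout below; filled points are called and named. *Tmsb4x*, *Daam1*, *Cald1* and *Pls3* are called in both panels, and the 6 members' points are all above 0 with TMM factors, that of *Tagln2* in control cells being the one that other scalings turn.

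The genes whose log2 CPM was most like that of a member over the 8 libraries were sought among 9494 other genes with a mean of at least 10 CPM. They were *Relb*, *Maff* and *Plaur* for *Actb* (Pearson r 0.98, 0.97 and 0.97) and *Lrig1*, *Ccl2* and *Relb* for *Cnn2* (0.98, 0.98 and 0.96). *Actg1* was closest to 4931406P16Rik, *Mmp10* and *Axl* (0.98, 0.97 and 0.96), and *Tagln2* to *Zfp703*, *Ccdc12* and *B4galt7* (0.97, 0.97 and 0.96). *Tpm1* was closest to *Rcl1*, *Fam110c* and *D10Wsu52e* (0.98, 0.98 and 0.97) and *Tpm4* to *Rai14*, *Bcar3* and *Slc4a7* (0.99 for each). With 8 libraries in 4 conditions and so many genes searched, values of this size describe the order of the libraries only. Between members, *Tpm1* and *Tpm4* had a Pearson r of 0.95, and the counts of *Tpm1* were 1.86 to 2.29 times those of *Tpm4* in each library. *Actb* and *Cnn2* had one of 0.92, whereas *Tagln2* and *Tpm1* had one of 0.00.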

How the data were processed

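The authors deposited whole-number read counts per gene for 8 libraries, without normalization. Its 37310 identifiers and their order are those of GENCODE vM1 on NCBIM37 (mm9), which gave symbols and positions. For alignment, the paper names subjunc with mm10 and mm9 and duplicate removal by samtools rmdup, and the submitters' processing notes name HISAT2, limma and mm10. The counting tool, its strand setting and its treatment of reads with several matches are not given in the sources used here. The paper describes an mRNA kit and single-end reads, the labels a total RNA kit and reads from both ends. *Actb* had 24007 to 102091 counts in a library, while its annotated exons offer 5358 start positions on both strands, so removal down to 1 single-end read per position cannot have preceded these counts.

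From the counts, CPM with TMM factors, quasi-likelihood tests in a model of the 4 conditions without a block and Benjamini-Hochberg adjustment over the 13028 genes passing filterByExpr came from edgeR 4.0.16 (R 4.3.3). A call required an absolute log2 fold change above 0.5 besides an adjusted p below 0.05, and for the interaction the adjusted p alone. The SE is the absolute log2 fold change over the square root of F, and log2 CPM used a prior count of 2. The paper calls the libraries of a condition biological replicates and the sources do not say what was repeated, such as a culture or a clone, so p-values measure the spread between these libraries. Copies were searched with BLAST+ 2.17.0. The test was checked on simulated data for 13028 genes, in which few genes changed by 0.5 on the log2 scale were called. A member that was not called is therefore not shown to be unchanged.

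The members, gene lists and tests were chosen with earlier results of these data known. All members tested were named in every comparison, and the targeted gene was named in the opening. From each pathway list, up to 4 genes called after TGF-β in either genotype were named by smallest p, or the 2 of smallest p where fewer than 2 were called. For each member the 3 genes of highest Pearson r were named. Further genes were named after their values were seen. Alternatives were DESeq2 1.42.0, limma-voom (limma 3.58.1), RLE, upper-quartile and no scaling factors, no filter on low counts or a mean of at least 10, counts thinned to the smallest total, a block for the replicate number, only the 4 libraries compared, calls without the fold change threshold, and leaving out each library. Added after seeing the data were fits without the treated libraries of higher or of lower *Srf*, a block with exchanged numbers and counts summed over pseudogene copies.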

Additional observations from a re-analysis of the deposited data

How the results depend on the processing

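The number of these genes called after TGF-β in control cells, 2 in the reported fit, was 1 with RLE factors, without a filter on low counts and with a mean of at least 10 counts, and 0 with upper-quartile factors, with library totals alone, with the replicate block and with the 4 libraries alone. It was 2 with DESeq2, limma-voom and thinned counts, and 0 to 1 with a library left out. Of all genes, 9.16% were called in the reported fit, 3.74% (the 4 libraries alone) to 11.2% (DESeq2) under these other settings and 1.05% to 11.1% with a library left out. *Tpm1* kept log2 fold changes of 0.41 to 0.60 and *Tpm4* of 0.36 to 0.61 over all 22 alternatives. In libraries labelled knockout, with 0 called, it was 1 (*Actg1*) with DESeq2, without a filter, with thinned counts and with the exchanged numbers (beside 9.27%, 8.95%, 6.44% and 11.9% of all genes), and 0 to 1 with a library left out (0.995% to 10.4%). *Actg1* was above 0 there in all 22 alternatives (0.62 to 1.61, adjusted p 6.32e-11 to 0.356). Between untreated genotypes 1 gene was called without a filter (*Actg1*, -0.57), beside 3.69% of all genes. Between treated genotypes 1 was called (*Tagln2*) with DESeq2, without a filter, with the exchanged numbers and without the treated libraries of higher *Srf* (beside 15.8%, 13.8%, 21.6% and 14.8% of all genes), and 0 to 1 with a library left out (3.57% to 20.7%). Without the treated libraries of lower *Srf* the counts after TGF-β were 5 in control cells and 4 in libraries labelled knockout, beside 14.4% and 14.5% of all genes, and without those of higher *Srf* 0 in control cells, beside 18.5%. These libraries were picked by a gene that moves with several members, so these counts are a description only. The causes were not tested.

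Library totals alone moved the median of all genes to -0.13 and -0.15 in the TGF-β comparisons. In control cells *Tagln2*, near 0, then turned to -0.11, to -0.023 with upper-quartile factors and to -0.27 without the libraries of higher *Srf*, where *Actb* was at -0.0395. With a library left out, *Tagln2* ranged from -0.27 to 0.28 and *Actb* from -0.04 to 0.55 there. *Cnn2* in libraries labelled knockout was -0.22 without the libraries of higher *Srf* and -0.22 to 0.81 with a library left out. Between untreated genotypes *Cnn2*, at -0.01, was 0.0026 with thinned counts and 0.0056 with exchanged numbers. With a library left out it ranged from -0.0802 to 0.0408, and *Actb* from -0.15 to 0.0932. Between treated genotypes *Actg1* was -0.0504 without the libraries of higher *Srf* and *Cnn2* 0.0807 without those of lower *Srf*. With a library left out, *Actb* ranged from -0.26 to 0.39, *Actg1* from -0.40 to 0.59 and *Cnn2* from -0.69 to 0.34. *Actg1* ranged from 0.12 to 0.75 and *Cnn2* from 0.12 to 0.70 after TGF-β in control cells. In the interaction *Cnn2* was 0.12 without the libraries of lower *Srf*, and with a library left out *Actb* ranged from -0.21 to 0.44, *Cnn2* from -0.66 to 0.38 and *Tpm4* from -0.20 to 0.0135.

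Libraries with the same replicate number deviated together by Pearson correlations across genes of 0.30 and -0.01 in the TGF-β comparisons and 0.10 and -0.47 between untreated and treated genotypes, so the numbers were not taken as pairs. The replicate block removed both calls in control cells (adjusted p 0.0614 for *Tpm1* and 0.064 for *Tpm4*) and added none. The 4 genes under the floor of 3 counts were under it in the deepest library too, and whether more reads would detect them was not tested.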

Other observations

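Between treated genotypes, 6 of 17 crosslinking and actomyosin genes were called, 5 higher and 1 lower in libraries labelled knockout, beside 15% of all genes. They were chosen after their values were seen. The non-muscle myosin heavy chains went different ways. *Myh10* had 28 and 27 counts in treated control libraries and 1 and 3 in treated libraries labelled knockout, and in the untreated libraries 19 and 29 beside 5 and 0. It was called lower in treated libraries labelled knockout (edgeR's adjusted p = 0.0233), a call that was lost without the treated libraries of lower *Srf* (adjusted p = 0.092). *Myh14* was called higher with a log2 change of 2.03 (SE 0.34, edgeR's adjusted p = 0.00704) and *Myh9* by 0.75 (SE 0.16, edgeR's adjusted p = 0.0153), the latter call being lost without the treated libraries of higher *Srf* (0.51, adjusted p = 0.0546). *Smtn*, at 44.5 and 48.9 CPM in treated control cells and at 107 and 119 in treated libraries labelled knockout, was higher by 1.27 (SE 0.17, edgeR's adjusted p = 0.00282). *Fscn1*, the bundler fascin, was higher by 1.13 (SE 0.23, edgeR's adjusted p = 0.0144) and *Mylk*, the myosin light chain kinase, by 0.95 (SE 0.18, edgeR's adjusted p = 0.0114). The calls on *Myh14*, *Smtn*, *Fscn1* and *Mylk* held without either library of the treated pairs, as did that on *Gsn*.

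*Gsn*, the severing protein gelsolin, was called in both genotype comparisons. It was at 239 and 244 CPM in untreated control cells and at 443 and 411 in untreated libraries labelled knockout, a log2 change of 0.82 (SE 0.12, edgeR's adjusted p = 0.0133). After TGF-β it was at 304 and 287 CPM in control cells and at 482 and 497 in libraries labelled knockout (0.73, SE 0.12, edgeR's adjusted p = 0.007). *Krt14*, a keratin of basal mammary cells, had 43 and 38 counts in untreated and 254 and 243 in treated control libraries, and 11 and 20 in untreated and 513 and 290 in treated libraries labelled knockout.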
